A study of Mus musculus with 16 samples.

Results

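The subject is 6 regulators of plasma cell differentiation, *Prdm1*, *Irf4*, *Xbp1*, *Ell2*, *Creb3l2* and *Zbtb20*, in 4 subpopulations of cMyc+ germinal center (GC) B cells of the mouse spleen. They were taken by gene symbol from the 51912 genes of the deposited table, each symbol gave 1 gene, and their values were read library by library in all 16 libraries. Tests were limited to genes whose mean over the 16 libraries reached 10, which kept 12505 genes and 5 of the 6 regulators. *Creb3l2*, at a mean of 9.66, lay below it and is described without a test.

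The cells came from male and female cMyc gfp/gfp mice aged 6 to 15 weeks on a C57BL/6J background, which carry a fusion of GFP with cMyc at the endogenous locus, and all mice had received sheep red blood cells (SRBC) intraperitoneally 7 d earlier. Every subpopulation was B220+ CD38low CD95+ cMycGFP+, and none was untreated. The cMyc+ prePB gate took CD69hi cells and the cMyc+ early gate CD23hi CD21/35hi cells. The cMyc+ lateCD23int gate took CD23int CD21/35int cells and the cMyc+ lateCD23lo gate CD23lo CD21/35lo cells, with 4 libraries for each subpopulation. In the authors' scheme CD69hi cells and then CXCR4hi CD86lo cells of the GC dark zone were gated out first. The early and late gates were set on the remaining light zone cells, whereas the cMyc+ prePB gate did not use the zone markers. B cells were first enriched by depletion of cells with CD43, a protein that plasma cells carry, and neither BLIMP-1 nor CD138 was part of a gate. The labels do not say whether libraries of a group came from separate mice, so the p-values measure the spread between these libraries, and in such bulk samples fewer cells that express a gene and less RNA per cell cannot be told apart.

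As background, GC B cells that receive T cell help switch on cMyc and either divide again or leave as plasmablasts or memory B cells. In the plasma cell branch IRF4 acts early and in a dose-dependent manner, BLIMP-1 (*Prdm1*) silences the B cell programme, and XBP1 enlarges the secretory apparatus. ELL2 helps to direct immunoglobulin mRNA processing to the secreted form, ZBTB20 is needed for lasting plasma cells, and CREB3L2 is a membrane-bound factor of the endoplasmic reticulum (ER).

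Values are normalized counts, for which the authors scaled the counts of each library by its size factor. The libraries held 19812080 to 25795815 recovered reads and 14650 to 15573 detected genes, and 3 reads, taken as the detection floor, corresponded to 2.48 to 3.23 normalized counts (counting error only). The GC B cell markers *Bcl6*, *S1pr2*, *Mef2b* and *Gcsam* were above the floor in all 16 libraries. Of 10 T cell genes, *Trac* and *Lck* were above it in all 16 libraries, *Cd3d* in 12, *Cd5* in 11, *Thy1* in 9, *Cd3g*, *Cd8a* and *Icos* in 3 each, *Cd3e* in 2 and *Cd4* in 1. Of 8 myeloid genes, *Cd68* was above it in 16 libraries, *Lyz2* in 12, *C1qb* in 9, *C1qa* and *Itgam* in 4 each, *Csf1r* and *Adgre1* in 3 each and *Cd14* in none. Of 9 plasma cell effector genes, *Jchain*, *Mzb1*, *Tnfrsf13b*, *Slamf7* and *Derl3* were above the floor in all 16 libraries, *Fkbp11* in 14, *Ly6c2* in 5, *Sdc1* (CD138) in 3 and *Tnfrsf17* (BCMA) in 1.

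Per kilobase of merged exon, the regulators covered a wide range of levels. *Xbp1* stood at a mean of 1261 normalized counts per kilobase over the 16 libraries, above 90.4% of the tested genes on that scale. *Ell2*, *Irf4* and *Zbtb20* followed at 142, 140 and 110 normalized counts per kilobase. *Prdm1* was far lower at 9.03 and *Creb3l2* at 1.33. *Zbtb20* has 21 annotated transcripts, and its merged exon length of 30730 bases holds more sequence than any single transcript, which lowers its value on this scale. The other regulators have 2 to 9 annotated transcripts, and how far merging lowers their values was not computed.

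*Prdm1*, *Xbp1*, *Ell2* and *Zbtb20*, 4 of the 5 tested, had their lowest mean in cMyc+ early, as did 23.4% of all tested genes. For *Xbp1* the means of cMyc+ early and cMyc+ lateCD23int were close, 3599 and 3707. The 4 remained lowest in cMyc+ early when any of the 16 libraries was left out, a check chosen after the data had been seen. That ranking says little for *Xbp1*. Its log2 difference of cMyc+ early from cMyc+ lateCD23int was -0.05 (95% interval -0.37 to 0.28, limma). *Irf4* did not follow, with its lowest mean in cMyc+ lateCD23lo. The multigroup comparison of the 4 subpopulations (limma) had no block for the replicate number. No regulator reached an adjusted p-value under 0.05 in it, against 0.408% of the tested genes. With that block, a pairing the labels do not give, *Prdm1* did (adjusted p = 0.0214, limma), among 173 genes called. Without the block 3 of the 5 had an unadjusted p-value under 0.05, against 10.2% of the tested genes. These were *Prdm1* (adjusted p = 0.111, rank 106 of the 12505 tested genes), *Ell2* (adjusted p = 0.24, rank 265) and *Zbtb20* (adjusted p = 0.319, rank 419).

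**Figure D1:**
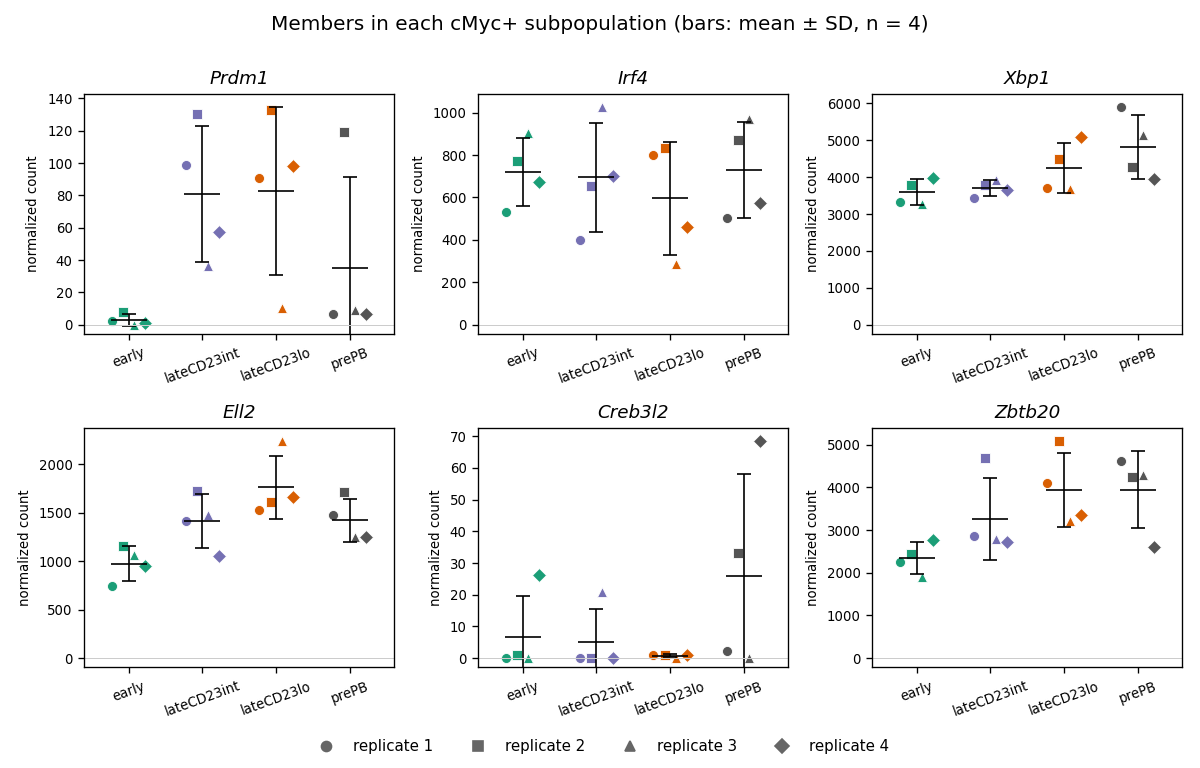
Normalized counts (y axis, each panel on its own scale) of the 6 regulators in the 4 subpopulations (x axis). Each point is 1 library, its shape gives the replicate number, and black bars give the mean ± SD (n = 4), cut off just under 0 where the SD exceeds the mean. *Prdm1* is at 0 to 7.96 in cMyc+ early, and 1 cMyc+ prePB library, at 119, stands apart from the other 3.

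*Irf4* (ENSMUSG00000021356, chromosome 13, 30749226 to 30766976 of GRCm38, plus strand) encodes the interferon regulatory factor that starts the plasma cell programme. In replicates 1 to 4 it stood at 505, 870, 968 and 573 normalized counts in cMyc+ prePB. In cMyc+ early the values were 529, 772, 906 and 674. In cMyc+ lateCD23int they were 398, 655, 1025 and 700. In cMyc+ lateCD23lo they were 800, 835, 287 and 461. The 4 ranges overlapped, and the means of 729 ± 225, 720 ± 159, 694 ± 257 and 596 ± 266 (SD, n = 4) differed by less than the spread within a group. Replicate 1 was the lowest library in cMyc+ prePB, cMyc+ early and cMyc+ lateCD23int, and replicate 3 the highest, whereas in cMyc+ lateCD23lo replicate 3 was the lowest. The difference between cMyc+ prePB and cMyc+ early in log2(normalized count + 1) was -0.01, with a 95% interval from -0.76 to 0.74, so that changes inside that interval cannot be told from none. The adjusted p-value of the multigroup comparison was 0.907 in limma.

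IRF4 binds DNA with partners, and 9 of these were followed. *Batf*, an AP-1 factor that binds composite elements with IRF4, was the only one of the 9 with a call. It stood at 4969, 5517, 6524 and 6937 normalized counts in cMyc+ prePB and at 1667 to 4376 in the other 12 libraries, with no overlap. The log2 difference of *Batf* in cMyc+ prePB from cMyc+ lateCD23lo was 1.62 (adjusted p = 0.000225, limma), from cMyc+ lateCD23int 1.27 (adjusted p = 0.00666) and from cMyc+ early 0.89 (adjusted p = 0.0519). The median difference of the 9 partners between cMyc+ prePB and the mean of the other 3 subpopulations was -0.09, against 0.00299 for all tested genes, with 3 partners above and 6 below 0. *Batf* was thus highest in cMyc+ prePB, where *Irf4* overlapped every other group. The authors likewise found neither *Irf4* nor *Prdm1* RNA significantly raised there. They did report a higher percentage of Blimp1-GFP+ cells and relatively higher IRF4 levels in cMyc+ prePB, which RNA counts do not measure.

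*Prdm1* (ENSMUSG00000038151, chromosome 10, 44437177 to 44528501, minus strand) encodes the repressor BLIMP-1. In cMyc+ early replicates 1 to 4 stood at 2.10, 7.96, 0 and 0.90 normalized counts, which is 12 reads in all, and 1 of these libraries was above the floor. In cMyc+ lateCD23int the values were 98.5, 130, 36.3 and 57.6, or 324 reads. In cMyc+ lateCD23lo they were 90.5, 133, 10.2 and 97.9, or 332 reads. Both late subpopulations lay above cMyc+ early with no overlap, by a wide margin in cMyc+ lateCD23int but only by 10 reads against 9 where replicate 3 of cMyc+ lateCD23lo met replicate 2 of cMyc+ early. In cMyc+ prePB *Prdm1* stood at 6.45, 119, 9.02 and 6.31, so that 144 of its 167 reads came from replicate 2.

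On the log2 scale *Prdm1* was 4.76 higher in cMyc+ lateCD23int than in cMyc+ early, with a 95% interval from 2.53 to 6.99. This size depends on the pseudocount, because most cMyc+ early libraries were at or under the floor. Written as cMyc+ early minus cMyc+ lateCD23int, it was -5.19 with a pseudocount of 0.5 and -3.43 with 5. The interval does not hold this dependence. The unadjusted p-value of *Prdm1* in that comparison was 0.000285, rank 6 of all tested genes, and its adjusted p-value 0.545 (limma). Against cMyc+ early, cMyc+ lateCD23lo was 4.49 higher (95% interval 2.26 to 6.73, adjusted p = 0.0893, limma). The difference of cMyc+ prePB from cMyc+ early was 2.57 (95% interval 0.34 to 4.80, adjusted p = 0.52), and without replicate 2 of cMyc+ prePB it was 1.60 (adjusted p = 0.773). Over all libraries, pseudocounts of 0.5 and 5 gave 2.94 and 1.59 for cMyc+ prePB against cMyc+ early. DESeq2 on the recovered reads called *Prdm1* lower in cMyc+ early than in cMyc+ lateCD23int (adjusted p = 0.023) and than in cMyc+ lateCD23lo (adjusted p = 0.00393). The direction was the same under limma and DESeq2, and the call was not. *Prdm1* passed the limit for testing through the late subpopulations and 1 cMyc+ prePB library, and its SD within subpopulations of 1.49 on the log2 scale compares with a median of 0.615 over all tested genes.

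Marker lists of T cells, myeloid cells, erythroid cells and NK cells were read beside this pattern. The 4 erythroid genes summed to 16.5 to 1513 normalized counts in cMyc+ prePB and 69.2 to 1083 in cMyc+ early. They summed to 53.7 to 2225 in cMyc+ lateCD23int and 130 to 568 in cMyc+ lateCD23lo. Replicate 4 had the highest erythroid sum in every subpopulation but cMyc+ lateCD23lo. The 4 NK cell genes summed to 0 to 122 over all libraries. The summed level of the 10 T cell genes was 2196 to 3932 normalized counts in cMyc+ early and 4175 to 7185 in the other 12 libraries. *Lck* made up nearly all of it, at 2157 to 3848 in cMyc+ early and 3910 to 6839 elsewhere, while the medians over the 16 libraries were 0 for *Cd3e*, *Cd3g* and *Cd4* and 41.8 for *Trac*, and the source of *Lck* was not tested. Without *Lck* the 9 remaining T cell genes summed to 38.8 to 148 in cMyc+ early, 114 to 181 in cMyc+ lateCD23int, 68.3 to 265 in cMyc+ lateCD23lo and 86.0 to 346 in cMyc+ prePB. The 8 myeloid genes summed to 756 to 1438 in cMyc+ lateCD23lo, 203 to 388 in cMyc+ early, 268 to 927 in cMyc+ lateCD23int and 307 to 953 in cMyc+ prePB, carried by *Lyz2* and *Cd68*. By subpopulation, the myeloid sum of cMyc+ lateCD23lo lay above that of cMyc+ early with no overlap, as *Prdm1* did. By library, replicate 3 of cMyc+ lateCD23lo had the highest myeloid sum and the lowest *Prdm1* of the late libraries. T cells and myeloid cells can express *Prdm1*, and their part in its level was not tested.

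*Xbp1* (ENSMUSG00000020484, chromosome 11, 5520659 to 5525893, plus strand) encodes the factor that drives ER expansion once its mRNA has been spliced by IRE1. Gene counts cannot tell the spliced from the unspliced form. In cMyc+ prePB the values were 5894, 4275, 5155 and 3956 normalized counts in replicates 1 to 4. In cMyc+ early they were 3333, 3801, 3284 and 3979, in cMyc+ lateCD23int 3441, 3796, 3929 and 3663, and in cMyc+ lateCD23lo 3717, 4502, 3692 and 5091. All 4 cMyc+ prePB libraries lay above the 4 of cMyc+ lateCD23int, where the lowest of the former, 3956, was next to 3929, while the other groups overlapped. *Xbp1* was among the steadiest genes, with an SD within subpopulations of 0.19 on the log2 scale, and 3.02% of the tested genes had a lower one.

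The log2 level of *Xbp1* in cMyc+ prePB exceeded that of cMyc+ early by 0.41 (95% interval 0.08 to 0.73, adjusted p = 0.455 in limma). Against cMyc+ lateCD23int the difference was 0.36 (0.04 to 0.69, adjusted p = 0.499) and against cMyc+ lateCD23lo 0.18 (-0.15 to 0.50, adjusted p = 0.654). Of 19 XBP1 targets, which encode chaperones, translocon subunits and factors of ER-associated degradation, none was called in any comparison (limma). When cMyc+ prePB was set against the mean of the other 3 subpopulations, 14 of the 19 were above 0 and 5 below, with a median difference of 0.21 against 0.00299 for all tested genes, and 4 had an unadjusted p-value under 0.05, all higher, against 11.1% of all tested genes. The ER chaperone *Hspa5* (BiP) was at 56216 to 73492 normalized counts in cMyc+ prePB, 50636 to 62596 in cMyc+ early, 48189 to 56691 in cMyc+ lateCD23int and 38736 to 53555 in cMyc+ lateCD23lo. Its difference between cMyc+ prePB and cMyc+ lateCD23lo was 0.49 (adjusted p = 0.126). *Dnajb9*, a co-chaperone of the same group, overlapped in all 4 subpopulations at 343 to 1249 normalized counts.

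Of 6 unfolded protein sensors and their effectors, none was called (limma, 0 of 6 also at an unadjusted p-value under 0.05, in each of the 7 comparisons with a direction). Of all tested genes 0.008% to 0.312% were called in these comparisons and 3.71% to 12.7% were under the unadjusted threshold. With so few genes, 0 of 6 is no result about them. *Ern1*, which encodes IRE1, the enzyme that splices *Xbp1* mRNA, ranged from 0 to 73.6 normalized counts and was at 0 in at least 1 library of every subpopulation. *Atf4*, the factor of the parallel PERK branch, stood at 885 to 1705 normalized counts. *Ern1* was thus at or near 0 in part of every subpopulation, while the *Xbp1* transcript was abundant in all 16 libraries.

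*Creb3l2* (ENSMUSG00000038648, chromosome 6, 37327255 to 37442146, minus strand) was above 3 reads in 4 of 16 libraries. In cMyc+ prePB it stood at 2.15, 33.1, 0 and 68.5 normalized counts in replicates 1 to 4. In cMyc+ early replicate 4 stood at 26.2 and the others at 0 to 0.88, and in cMyc+ lateCD23int replicate 3 stood at 20.8 and the others at 0. In cMyc+ lateCD23lo the values were 1.08, 0.94, 0 and 1.02, which is 3 reads in all. Libraries with and without signal occurred side by side in 3 of the 4 subpopulations, and no difference between them was tested.

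*Ell2* (ENSMUSG00000001542, chromosome 13, 75706757 to 75772364, plus strand) encodes an elongation factor of RNA polymerase II. In cMyc+ early replicates 1 to 4 stood at 742, 1156, 1062 and 950 normalized counts. In cMyc+ lateCD23int the values were 1411, 1727, 1475 and 1057, and in cMyc+ lateCD23lo 1527, 1614, 2244 and 1667. In cMyc+ prePB they were 1477, 1718, 1254 and 1246. The 4 cMyc+ early libraries lay below all libraries of cMyc+ prePB and cMyc+ lateCD23lo, and replicate 4 of cMyc+ lateCD23int fell inside their range. The means were 977 ± 178 in cMyc+ early, 1424 ± 223 in cMyc+ prePB, 1418 ± 277 in cMyc+ lateCD23int and 1763 ± 326 in cMyc+ lateCD23lo (SD, n = 4).

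For *Ell2* the log2 difference of cMyc+ lateCD23lo from cMyc+ early was 0.85 (95% interval 0.42 to 1.28, adjusted p = 0.096 in limma, rank 74 of the tested genes). DESeq2 called it, with an adjusted p-value of 0.00955. The difference of cMyc+ prePB from cMyc+ early was 0.55 (0.12 to 0.98, adjusted p = 0.447) and that of cMyc+ lateCD23int 0.53 (0.10 to 0.96, adjusted p = 1). Of 10 further genes of the elongation and RNA processing machinery 9 were tested and none was called in limma, against at most 0.312% of all tested genes. Between cMyc+ early and cMyc+ lateCD23lo 1 of the 9 had an unadjusted p-value under 0.05, a share near the 10.3% of all tested genes. This was *Eaf2*, which encodes a partner of ELL proteins, at 2650 to 4280 normalized counts in cMyc+ early and 4285 to 7218 in cMyc+ lateCD23lo (log2 difference of cMyc+ early against cMyc+ lateCD23lo -0.64, adjusted p = 0.44). *Eaf2* and *Ell2* differed in cMyc+ prePB, where *Eaf2* had its lowest mean of the 4 subpopulations, 2618, and *Ell2* did not.

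The 250 bases before the RefSeq start sites of *Prdm1* and *Ell2*, the regulators with the smallest p-values between cMyc+ early and cMyc+ lateCD23lo, are shown because they were searched for the elements through which this network is known to act. Each is written from 5′ to 3′ on the strand of its gene, with motif matches on either strand in capitals (RefSeq, GRCm38.p6, chr10:44458749-44458998 on the minus strand and chr13:75707234-75707483 on the plus strand).
Prdm1: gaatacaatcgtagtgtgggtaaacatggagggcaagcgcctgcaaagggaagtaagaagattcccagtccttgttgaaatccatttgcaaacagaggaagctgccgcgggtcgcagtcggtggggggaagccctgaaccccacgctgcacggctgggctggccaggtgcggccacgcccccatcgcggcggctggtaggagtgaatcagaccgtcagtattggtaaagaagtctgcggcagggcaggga
Ell2: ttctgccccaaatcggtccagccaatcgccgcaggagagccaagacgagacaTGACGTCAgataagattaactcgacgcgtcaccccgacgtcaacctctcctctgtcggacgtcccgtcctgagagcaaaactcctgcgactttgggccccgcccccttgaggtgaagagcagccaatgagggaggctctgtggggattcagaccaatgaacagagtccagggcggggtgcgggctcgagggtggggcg
The capitals in the *Ell2* sequence mark TGACGTCA, the cAMP response element, which begins 198 bases before the start and reads the same on both strands. It was found in 1 of the 6 regulators and in 1.55% of the 32851 promoters of that length. The BLIMP-1 core AGTGAAAG (1.09% of promoters), the interferon response element GAAANNGAA (7.13%), the unfolded protein response element TGACGTGG (0.563%) and the E-box CACGTG (6.02%) were found in none of the 6. All 6 regulators were matched by symbol, each has further annotated starts that were not searched, and a match is a run of letters and not a site of binding.

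*Zbtb20* (ENSMUSG00000022708, chromosome 16, 42875881 to 43642602, plus strand) encodes a BTB zinc finger repressor. In cMyc+ early replicates 1 to 4 stood at 2243, 2452, 1892 and 2779 normalized counts. In cMyc+ lateCD23int the values were 2859, 4687, 2782 and 2720, in cMyc+ lateCD23lo 4111, 5092, 3220 and 3349, and in cMyc+ prePB 4631, 4242, 4303 and 2610. All libraries of cMyc+ lateCD23lo lay above all of cMyc+ early, and 3 of 4 did so in both cMyc+ prePB and cMyc+ lateCD23int, where replicate 4 was the exception each time. The log2 difference from cMyc+ early was 0.74 in cMyc+ lateCD23lo (95% interval 0.28 to 1.203, adjusted p = 0.227 in limma), 0.73 in cMyc+ prePB (0.27 to 1.195, adjusted p = 0.292) and 0.45 in cMyc+ lateCD23int (-0.01 to 0.91, adjusted p = 1). Between cMyc+ prePB and cMyc+ lateCD23lo *Zbtb20* differed by -0.01 (-0.47 to 0.45). Among 15 relatives of the regulators (other PRDM, IRF, CREB3 and ZBTB genes) 13 were tested and none was called in limma, with 0 or 1 at an unadjusted p-value under 0.05 in each comparison. Of all tested genes at most 0.312% were called and 3.71% to 12.7% were under the unadjusted threshold. These counts are therefore no result about the relatives. *Zbtb32*, a BTB zinc finger gene of activated B cells, ranged from 0 to 281 normalized counts with overlapping groups.

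**Figure D2:**
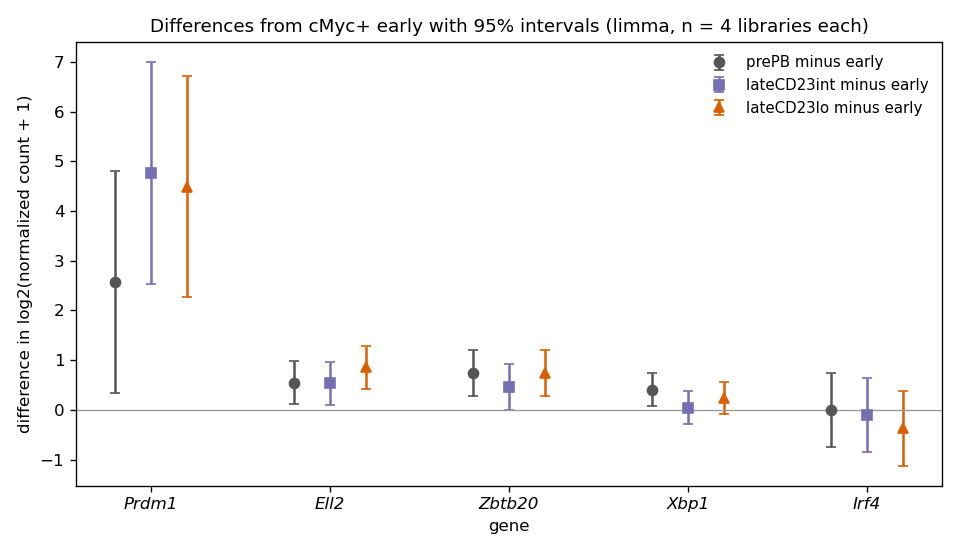
Difference from cMyc+ early in log2(normalized count + 1) (y axis) for the 5 tested regulators (x axis), with 95% intervals from limma (n = 4 libraries in each subpopulation). The 3 comparisons share the cMyc+ early libraries. *Prdm1* has the largest differences and the widest intervals, *Ell2* lies above 0 in all 3, and *Irf4* spans 0 in all 3.

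Comparison by comparison, limma without a block for the replicate number called 0 of the 5 tested regulators at an adjusted p-value under 0.05 each time. Between cMyc+ prePB and cMyc+ early 0.192% of the tested genes were called, and at an unadjusted p-value under 0.05 the counts were 4 of the 5 regulators (*Prdm1*, *Xbp1*, *Ell2* and *Zbtb20*, all higher in cMyc+ prePB) against 8.58% of the tested genes. Only *Ell2* had no overlap there, as had 4.23% of the tested genes. The median log2 difference of the 5 regulators in that comparison was 0.55, against 0.01 for all tested genes. edgeR and DESeq2 called none of the 5 between cMyc+ prePB and cMyc+ early, with 4 under the unadjusted threshold in each.

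Between cMyc+ early and cMyc+ lateCD23int 0.008% of the tested genes were called. Under the unadjusted threshold were 2 regulators (*Prdm1* and *Ell2*) against 3.71% of the tested genes, and 1 (*Prdm1*) had no overlap against 2.48%. edgeR called none, with 3 under the unadjusted threshold, and DESeq2 called 1. Between cMyc+ early and cMyc+ lateCD23lo 0.28% were called, 3 regulators (*Prdm1*, *Ell2* and *Zbtb20*) were under the unadjusted threshold against 10.3%, and the same 3 had no overlap against 6.23%. edgeR called none of the 5 in that comparison, with 3 under the unadjusted threshold, and DESeq2 called 2. The median log2 difference of the 5 between cMyc+ early and cMyc+ lateCD23lo was -0.74, against -0.01 for all tested genes. The 3 comparisons with cMyc+ early gave shares of the 5 regulators without overlap or under the unadjusted threshold above those of all tested genes. None of the 5 was called there by limma without the block. These shares only describe 5 genes chosen with earlier results of these data known, and the comparisons share the cMyc+ early libraries. *Prdm1* passed the limit for testing through the late subpopulations and 1 cMyc+ prePB library. The share without overlap rested on *Prdm1* alone against cMyc+ lateCD23int and on *Ell2* alone against cMyc+ prePB.

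The remaining comparisons showed less. Between cMyc+ lateCD23int and cMyc+ lateCD23lo 0.008% of the tested genes were called, 6.28% were under the unadjusted threshold and 3.77% had no overlap, with 0 of 5 regulators in each case (0 also in edgeR and DESeq2, adjusted and unadjusted). Between cMyc+ prePB and cMyc+ lateCD23int 0.144% were called, and *Xbp1* alone was under the unadjusted threshold and without overlap, against 8.77% and 5.21% of the tested genes. Here edgeR and DESeq2 called none, with 1 each under the unadjusted threshold. For cMyc+ prePB and cMyc+ lateCD23lo 0.264% were called, 12.7% were under the unadjusted threshold and 6.56% had no overlap, with 0 of 5 regulators in each case and in all 3 tools. Against the mean of the other 3 subpopulations, 0.312% were called for cMyc+ prePB and 11.1% were under the unadjusted threshold, with 1 of 5 regulators under it, *Xbp1* (log2 difference 0.32, 95% interval 0.05 to 0.58, adjusted p = 0.354), in limma as in edgeR and DESeq2 by count.

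Genes that these regulators act on were read beside them. Of 9 plasma cell effector genes 8 were tested. *Jchain*, the joining chain of IgM and IgA polymers, was lower in cMyc+ early than in cMyc+ lateCD23lo (log2 difference -1.44, adjusted p = 0.0394, limma) and was the only effector called in any of the 7 comparisons with a direction. *Jchain* stood at 25890, 18862, 25960 and 23781 normalized counts in cMyc+ early and at 51542, 59946, 63385 and 84470 in cMyc+ lateCD23lo. In cMyc+ prePB it stood at 104886, 31885, 43640 and 41363, and in cMyc+ lateCD23int at 55167, 38337, 26598 and 47076. The cMyc+ early libraries lay below all 12 others, but narrowly so in cMyc+ lateCD23int (25960 next to 26598). *Jchain* was not called between cMyc+ early and cMyc+ lateCD23int, or between cMyc+ prePB and cMyc+ early (adjusted p = 0.194, limma). Between cMyc+ early and cMyc+ lateCD23lo 0.28% of the tested genes were called and 6.23% had no overlap. The lowest means of *Prdm1*, *Ell2* and *Zbtb20* were also in cMyc+ early. The 8 tested effectors lay on both sides of 0. Between cMyc+ early and cMyc+ lateCD23lo 5 were above 0 and 3 below, with a median of 0.10 against -0.01 for all tested genes, and between cMyc+ early and cMyc+ lateCD23int 6 were above 0 and 2 below. *Mzb1*, an ER protein of antibody-secreting cells, had its lowest mean in cMyc+ early, 9239 against 12749 in cMyc+ lateCD23lo (log2 difference of cMyc+ early against cMyc+ lateCD23lo -0.46, adjusted p = 0.254).

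*Sdc1* was read in 3 libraries, at 108 normalized counts in replicate 2 of cMyc+ prePB, 45.1 in replicate 2 of cMyc+ early and 53.0 in replicate 4 of cMyc+ lateCD23int, and at 0 to 2.15 in the other 13. Replicate 2 of cMyc+ prePB was thus the library with the highest *Sdc1* and, within its group, the highest *Prdm1* (119) and *Ell2* (1718). This was not particular to that group. Replicate 2 also had the highest *Prdm1* of cMyc+ early (7.96), cMyc+ lateCD23int (130) and cMyc+ lateCD23lo (133). It had the highest *Ell2* of cMyc+ early (1156) and cMyc+ lateCD23int (1727), but not of cMyc+ lateCD23lo. Replicate 1 of cMyc+ prePB had the highest *Xbp1* and *Jchain* of all 16 libraries, with *Prdm1* at 6.45. The high values of *Prdm1* and of *Jchain* in cMyc+ prePB therefore came from different libraries.

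Of 13 genes of the B cell programme 12 were tested, and *Mitf* was at 0 throughout. Against the mean of the other 3 subpopulations, 1 of the 12 was called in cMyc+ prePB, *Id3*, an inhibitor of E proteins, which fell by 1.09 on the log2 scale (adjusted p = 0.0352, limma). The authors had already reported reduced *Id3* in cMyc+ prePB from these data. The list was chosen with earlier results known, so its counts below are not independent of them. *Id3* stood at 1672, 1360, 1679 and 1079 normalized counts in cMyc+ prePB and at 1751 to 4921 in the other 12 libraries. In that comparison 10 of the 12 genes were below 0 and 2 above, 7 had an unadjusted p-value under 0.05, all lower (11.1% of all tested genes were under it and 0.312% were called), and the median difference was -0.39 against 0.00299 for all tested genes. *Bcl6*, the repressor that maintains the GC state and opposes *Prdm1*, stood at 1238 to 2204 normalized counts in cMyc+ prePB, 1739 to 2672 in cMyc+ early, 1911 to 2762 in cMyc+ lateCD23int and 1947 to 4242 in cMyc+ lateCD23lo. Its difference between cMyc+ prePB and cMyc+ lateCD23lo was -0.79 (adjusted p = 0.182). *Pax5*, the B cell identity factor that BLIMP-1 represses, had its lowest mean in cMyc+ prePB, 2413, and its highest in cMyc+ early, 3266 (log2 difference -0.45, adjusted p = 0.449). *Bach2*, which restrains *Prdm1*, stood at 945 to 1102 in cMyc+ prePB and 667 to 2193 elsewhere.

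**Figure D3:**
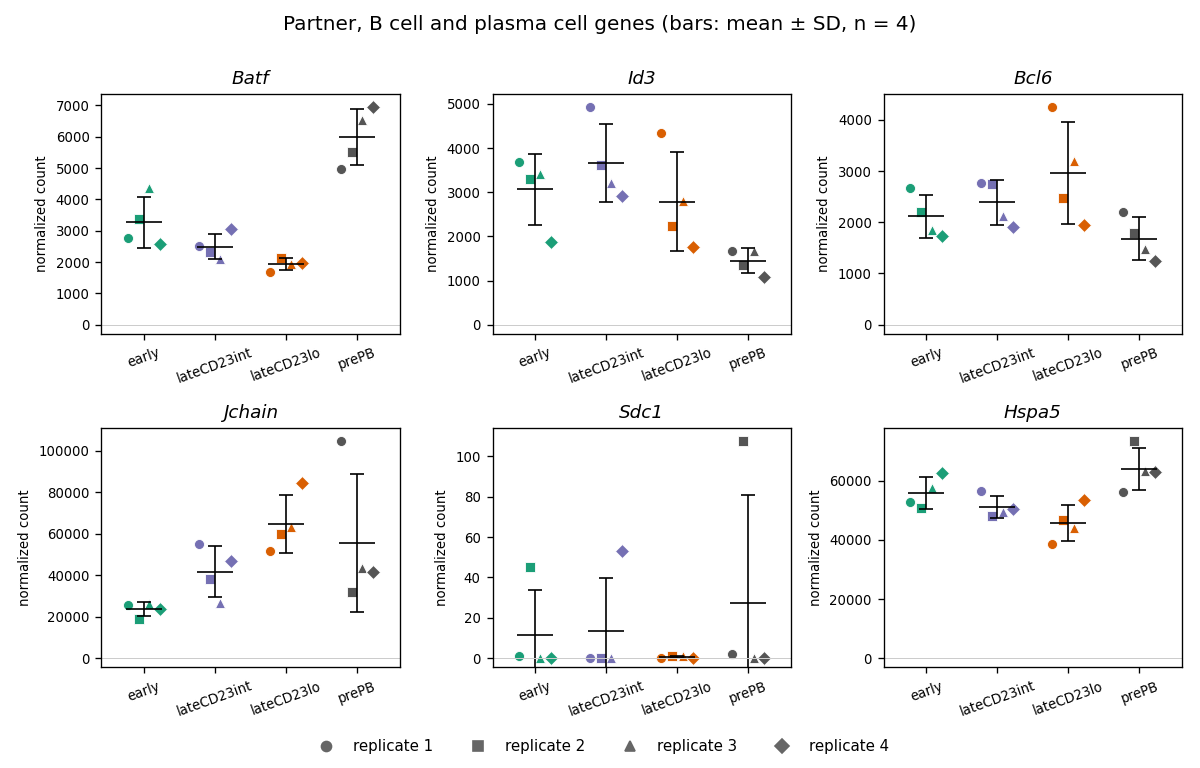
Normalized counts (y axis, each panel on its own scale) of 6 genes of the lists in the 4 subpopulations (x axis). Points are libraries, shapes give the replicate number, and black bars give the mean ± SD (n = 4), cut off just under 0. *Batf* is highest and *Id3* lowest in cMyc+ prePB with no overlap, *Jchain* is lowest in cMyc+ early, and *Sdc1* is near 0 in 13 of 16 libraries.

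Across the 16 libraries, which share subpopulations and so are not independent points, the log2 levels of *Prdm1*, *Ell2* and *Zbtb20* varied together to a moderate degree, with a Pearson correlation of 0.615 for *Prdm1* and *Ell2*, 0.616 for *Prdm1* and *Zbtb20* and 0.631 for *Ell2* and *Zbtb20*. *Xbp1* and *Zbtb20* had 0.654. After the subpopulation means were taken out, these correlations were 0.0858, 0.462, 0.217 and 0.475. *Prdm1* with *Ell2* was thus close to 0 within subpopulations, whereas the pairs of *Zbtb20* with *Prdm1* and with *Xbp1* kept more of their correlation. *Irf4* had correlations from -0.265 to 0.243 with the other 5.

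The tested genes whose log2 levels were most like those of each regulator over the 16 libraries are given by Pearson correlation, as a description of these libraries. For *Prdm1* they were *Il10* (0.80), a cytokine gene, *AC125149.1* (0.78) and *Atcayos* (0.78). For *Irf4* they were *Arf3*, *L3mbtl2* and *Pop1* (each 0.84), and for *Ell2* they were *Gng3* (0.88), *Fgd6* (0.85) and *Cetn4* (0.84). For *Xbp1* they were *Ighv10-1* (0.82), an immunoglobulin variable segment, *Pdk3* (0.82) and *Hpgds* (0.79). For *Zbtb20* they were *Cd300lf* (0.83), *Gm26586* (0.82) and *Igkv1-117* (0.80), and for *Creb3l2*, whose value rests on 4 libraries, *Gm340* (0.91), *Tap1* (0.82) and *Slc39a4* (0.82). No regulator was among the 3 genes most like another.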

How the data were processed

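Total RNA of 16 libraries, made with a low-input kit and 4 for each subpopulation, was measured. The deposited signal is a gene count divided by 1 size factor per library. The submitters' processing notes name Trimmomatic 0.36, STAR 2.5.2a, RSEM 1.2.31, DESeq2 1.20.0, R 3.5.1 and the build GRCm38, with no roles given. Every value was a whole multiple of the smallest value of its library (tolerance 0.01), which gave back whole reads for 100% of them. The number of sample columns left unused was 0.

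Groups came from the labels. Genes whose mean reached 10 were fitted on the scale log2(normalized count + 1) in limma 3.58.1 (R 4.3.3) with 1 model over all libraries, a trended prior and Benjamini-Hochberg adjustment over all 12505 genes. A pseudocount of 1 understates changes of low genes. edgeR 4.0.16 and DESeq2 1.42.0 were run on recovered reads as alternatives, and the fits were tested on simulated data. The regulators and the gene lists were chosen with earlier results of these data known, so no list was tested as a set. Named genes were the 6 regulators, the 3 genes most like each, list genes with a call and 13 landmark genes set per list, beside marker genes of other cells. Coordinates and exon lengths are from GENCODE vM21. Exons of *Ell2* and *Zbtb20* overlap small or antisense genes over at most 1.32% of their exon bases.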

Additional observations from a re-analysis of the deposited data

Results flagged for a closer look

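For the 6 regulators and 14 further named genes, the gap of 1 library to the nearest of the others was taken as a share of its group's range. It exceeded Dixon's critical value in 11 of 80 groups of 4 libraries. Of the 24 groups of the regulators 5 exceeded it. Values with a normal distribution exceed it in about 1 of 20 groups. The flagged groups of *Sdc1*, *Creb3l2* and *Ern1* rested on libraries at or near 0, where that rate does not apply. The 11 groups can therefore not be read as an excess over chance. *Prdm1* stood at 119 in replicate 2 of cMyc+ prePB, and the other 3 libraries at 6.31 to 9.02. *Sdc1* stood at 108 in the same library (others 0 to 2.15), at 45.1 in replicate 2 of cMyc+ early (others 0 to 1.05) and at 53.0 in replicate 4 of cMyc+ lateCD23int (others 0).

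*Zbtb20* stood at 4687 in replicate 2 of cMyc+ lateCD23int against 2720 to 2859. *Creb3l2* stood at 26.2 in replicate 4 of cMyc+ early (others 0 to 0.88) and at 20.8 in replicate 3 of cMyc+ lateCD23int (others 0), and at 0 in replicate 3 of cMyc+ lateCD23lo, where the others held 1 read each. *Ern1* stood at 37.2 in replicate 4 of cMyc+ lateCD23int (others 0) and *Atf4* at 1705 in replicate 3 of that group against 1239 to 1309. *Jchain* stood at 104886 in replicate 1 of cMyc+ prePB against 31885 to 43640. All values are normalized counts.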

How the results depend on the processing

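The count of regulators called was 0 of 5 in each of the 8 comparisons under limma, and left-out libraries gave 0 to 0 in all 16 fits of each. The replicate number as a block gave 1 in the multigroup comparison (*Prdm1*, adjusted p = 0.0214) and 2 between cMyc+ early and cMyc+ lateCD23lo (*Prdm1*, adjusted p = 0.0209, and *Ell2*, 0.0462), and edgeR with the block gave 1 there (*Prdm1*, 0.0396). DESeq2 gave 1 between cMyc+ early and cMyc+ lateCD23int (*Prdm1*) and 2 between cMyc+ early and cMyc+ lateCD23lo (*Prdm1* and *Ell2*). The block raised the genes called from 51 to 173 in the multigroup comparison and from 35 to 90 between cMyc+ early and cMyc+ lateCD23lo, where edgeR with the block called 63 and DESeq2 170. DESeq2 called 20 against 1 between cMyc+ early and cMyc+ lateCD23int. The cause of these changes was not tested. Pairing is not given by the labels. Over 24 pairs of libraries with the same number the mean correlation of their deviations was 0.0509 (-0.129 to 0.174, 5 pairs over 0.1), and 10 of 16 libraries correlated best with their own number, a hint from the data and not the design. How many would do so without pairing was not computed. No result reversed. Pseudocounts of 0.5 and 5, no filter, a mean of 50, rescaling, quantile normalization, no trend, only the groups compared and edgeR without the block changed no call of a regulator. *Creb3l2* and *Prdm1* were at or under 3 reads in 12 and 3 of 16 libraries, where 1 read more or less moves the log2 value. The check of leaving out libraries for the lowest mean in cMyc+ early was chosen after the data had been seen.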
